A study of Mus musculus with 5 samples.

Results

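The genes described here encode the machinery of oxidative phosphorylation. They were chosen by name as the rows that begin with Nduf, Sdha to Sdhd, Uqcr, Cox4 to Cox8, Atp5 or the mitochondrial prefixes mt-Nd, mt-Co, mt-Cyt and mt-Atp, which gave 99 of the 31626 genes in the files, with 98 distinct symbols because mt-Nd6 is listed on 2 rows. RNA sequencing measured them in mouse common myeloid progenitors, the bone marrow progenitors of the myeloid, erythroid and platelet lineages. In all 5 libraries the cells were of strain C57Bl/6, carried floxed Mll1 alleles, had been transformed with the retroviral vector MSCV-MN1-IRES-GFP, which carries the leukaemia gene MN1, and grew in M3234 methylcellulose medium with serum, IL3, IL6 and SCF. The Mll1 KO group (2 libraries) received Cre recombinase and is labelled MLL1 -/-. The Control group (3 libraries) received a control in the transduction and is labelled MLL1 flox/flox. Cells of both groups were sorted on day 7. No library had Cre without floxed Mll1, so exposure to Cre and loss of Mll1 cannot be told apart. Separate mice or cultures are not named for the libraries of a group, and a p-value here therefore covers only how these samples vary, which may be technical variation.

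Oxidative phosphorylation makes ATP in the inner mitochondrial membrane. Complex I (NADH dehydrogenase) and complex II (succinate dehydrogenase) pass electrons to coenzyme Q, complex III passes them to cytochrome c, and complex IV (cytochrome c oxidase) passes them to oxygen. Complexes I, III and IV pump protons, and complex V (ATP synthase) uses the gradient to make ATP. Most subunits are encoded by nuclear genes, while a small core of complexes I, III, IV and V is encoded by mitochondrial DNA. MLL1 is a histone H3 lysine 4 methyltransferase that acts at promoters. By name and textbook role, 80 of the members were nuclear subunits of complexes I to V, with 36 in complex I, 4 in complex II, 7 in complex III, 18 in complex IV and 15 in complex V. The other nuclear members were 5 assembly or supercomplex factors, Ndufa4l2 (a paralogue of Ndufa4), Atp5l2 (a pseudogene in GENCODE M21) and Cox4nb, a subunit of an endoplasmic reticulum membrane complex that matched by name alone. Ndufa4 was counted in complex IV, where its protein sits despite its name.

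Nuclear respiratory genes are known to share binding sites of the activators NRF1, GABP (an ETS factor) and YY1. RefSeq promoter windows (build GRCm38.p6, 250 bases before to 50 after each start) were found for 71 of the 87 nuclear members looked up, in 77 windows, and were searched on both strands. The NRF1 core GCATGCGC stood in 10 of the 77 windows (13%), against 2.71% of all 32851 windows. The GABP core CCGGAAG stood in 17 (22.1%), against 8.86% of all windows, and the YY1 core AAGATGGCG in 9 (11.7%), against 1.40%. A match is a description of the letters and not a binding site. The windows below show a complex II subunit and a complex IV subunit that hold NRF1 and GABP cores, and the supercomplex factor Cox7a2l, which holds none of the 3 motifs; capitals mark the cores, on either strand. Sdhb lies at chr4:140961021-140961320 on the plus strand, Cox6a1 at chr5:115348909-115349208 on the minus strand and Cox7a2l at chr17:83514284-83514583 on the minus strand.
Sdhb: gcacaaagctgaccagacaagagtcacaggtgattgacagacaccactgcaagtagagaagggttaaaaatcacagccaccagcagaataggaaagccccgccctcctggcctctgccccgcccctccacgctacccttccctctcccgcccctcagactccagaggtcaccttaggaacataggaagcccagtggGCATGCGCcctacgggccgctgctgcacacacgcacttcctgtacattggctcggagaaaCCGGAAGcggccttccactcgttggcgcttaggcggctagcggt
Cox6a1: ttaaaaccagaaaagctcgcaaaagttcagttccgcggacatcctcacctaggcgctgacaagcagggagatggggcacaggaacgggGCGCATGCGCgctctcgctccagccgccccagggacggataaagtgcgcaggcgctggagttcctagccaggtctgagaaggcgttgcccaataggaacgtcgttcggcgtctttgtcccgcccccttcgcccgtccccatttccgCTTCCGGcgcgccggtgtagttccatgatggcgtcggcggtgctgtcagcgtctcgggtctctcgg
Cox7a2l: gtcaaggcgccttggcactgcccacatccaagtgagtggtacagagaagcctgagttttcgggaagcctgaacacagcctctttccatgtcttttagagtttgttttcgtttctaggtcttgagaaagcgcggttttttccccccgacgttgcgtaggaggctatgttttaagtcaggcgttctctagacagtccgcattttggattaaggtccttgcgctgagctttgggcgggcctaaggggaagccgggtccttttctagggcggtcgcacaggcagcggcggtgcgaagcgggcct

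Values are FPKM, fragment numbers divided by transcript length and by library size, so levels of different genes are compared per length. The files hold no counts, and absolute depth is unknown; read from the steps of low values, the worth of 1 read relative to Control replicate 1 was 0.980 and 0.981 in Mll1 KO and 0.994 and 1.02 in Control replicates 2 and 3. Mll1 itself had 6.22 and 5.32 FPKM in Mll1 KO, against 9.67, 7.28 and 7.19 FPKM in Control. Both knockout values were below all controls, and a two-sided exact permutation over all 10 splits gave p = 0.1, the lowest p these splits can give. The value spans the whole gene, exons outside the deleted part included, so it is a weak check of the deletion. Of the 10 myeloid progenitor markers listed, 9 were in the files and all 9 passed the filter on low values. By limma 3 were called higher in Mll1 KO, with log2 changes of 1.46 (Mpo), 1.45 (Fcgr3) and 0.69 (Csf2rb). The 2 called lower were Flt3 (-3.26) and Cd34 (-1.54). For these and the marker calls below, 3.82% of all genes tested were called higher and 5.97% lower. Of 12 neutrophil markers, 11 were in the files, none of them at 0 in all libraries, and limma called 1 of the 9 tested, Lcn2, which was higher in Mll1 KO. They summed to 22417 and 20683 FPKM in Mll1 KO, against 6409, 792 and 1053 FPKM in Control replicates 1, 2 and 3. S100a8 and S100a9 made up most of each sum, while Ngp, Camp and Ltf were highest in Control replicate 1 and Mmp8 overlapped between the groups. Among mast cell and basophil markers 2 of 5 tested were called higher, and the summed level was 1138 and 1159 FPKM in Mll1 KO, against 533 to 773 FPKM in Control. Monocyte and macrophage markers, with 2 of 4 tested called lower (Irf8 and Ccr2), summed to 39.3 and 42.8 FPKM in Mll1 KO, against 98.9, 65.4 and 50.8 FPKM in Control, and erythroid markers, with 3 of 8 tested called higher (Alas2, Gata1 and Klf1), to 44.2 and 47.1 FPKM in Mll1 KO, against 75.5, 24.9 and 22.9 FPKM in Control, where haemoglobin genes led the sum of Control replicate 1. Of 8 lymphoid markers 1 was tested, Rag2, with 0.508 and 0.599 FPKM in Mll1 KO, against 2.42, 3.21 and 3.40 FPKM in Control; it was called lower, having passed the filter through the Control libraries alone, as had Irf8. Among the erythroid calls, Alas2 needed the Mll1 KO libraries to pass the filter, as Control replicates 2 and 3 were under 1 FPKM. The calls of Alas2, Rag2 and Irf8 are therefore no support for a difference. Among lymphoid markers Cd3g and Pax5, and among stromal markers Dcn and Lum, were at 0 in all libraries. The part of these cell markers in the results below was not tested. In such bulk samples fewer cells of a type and less RNA per cell cannot be told apart.

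Nuclear respiratory chain genes were abundant, and their levels in Mll1 KO lay close to those in Control. The 80 nuclear subunits summed to 19116 and 18802 FPKM in Mll1 KO, against 16712, 21632 and 20313 FPKM in Control, which is 3.09% and 2.92% of all summed FPKM in Mll1 KO, against 2.88%, 3.51% and 3.18% in Control. The knockout sums lay between those of Control replicate 1 and the other controls. Of the 99 members, 82 passed the filter (1 FPKM or more in 2 or more libraries) and were tested; 58 of the nuclear subunits averaged above 100 FPKM. None was called: limma on log2(FPKM + 1), with Benjamini-Hochberg adjustment over all 11780 genes tested and a threshold of adjusted p under 0.05, gave 0 members higher and 0 lower. Over all genes tested, 9.79% were called, 3.82% higher and 5.97% lower in Mll1 KO. At an unadjusted p under 0.05 there were 7 members (8.54%), against 29.8% of all genes. Both knockout values lay outside the control range in 18 members (22.0%), 6 above and 12 below, against 52.4% of all genes.

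By complex, the median log2 change (Mll1 KO minus Control) of tested nuclear subunits was -0.04 in complex I, -0.04 in complex II, 0.04 in complex III, -0.13 in complex IV and 0.02 in complex V. The complex IV median takes in 4 tissue-restricted forms at low levels. It was -0.06 over the 11 widely expressed subunits, and -0.10 over complex IV with no filter on low values. Over the 75 tested nuclear subunits together the median was -0.04, with 30 changes above 0 and 45 below, against a median of -0.03 over all genes, of which 46.5% were above 0. The signs of these medians were not stable: without Control replicate 1 they were -0.15 in complex I, -0.18 in complex II, -0.10 in complex III, -0.21 in complex IV and -0.06 in complex V. Without Control replicate 2 the medians of complexes I and II were above 0, at 0.05 and 0.04, as was that of all nuclear subunits, at 0.06. Complex II was above 0 without Control replicate 3 as well, at 0.02. Complexes III and V also had medians below 0 with quantile normalization (-0.015 and -0.090) and with scaling to the nuclear sum (-0.0093 and -0.025), and so did complex V with the length and GC correction (-0.025). The log2 change lay within 0.3 of 0 in 70 of the 75. Precision set what could be seen: the median standard error of a member was 0.138, and its 95% interval reached a median of 0.353 to either side on the log2 scale. A smaller change was therefore not detectable for a typical member even at an unadjusted p under 0.05. The adjusted threshold is stricter. The factors Cox7a2l, at -0.51 (SE 0.118), and Atp5s, at -0.45 (SE 0.102), went beyond 0.353 and were not called.

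**Figure D1:**
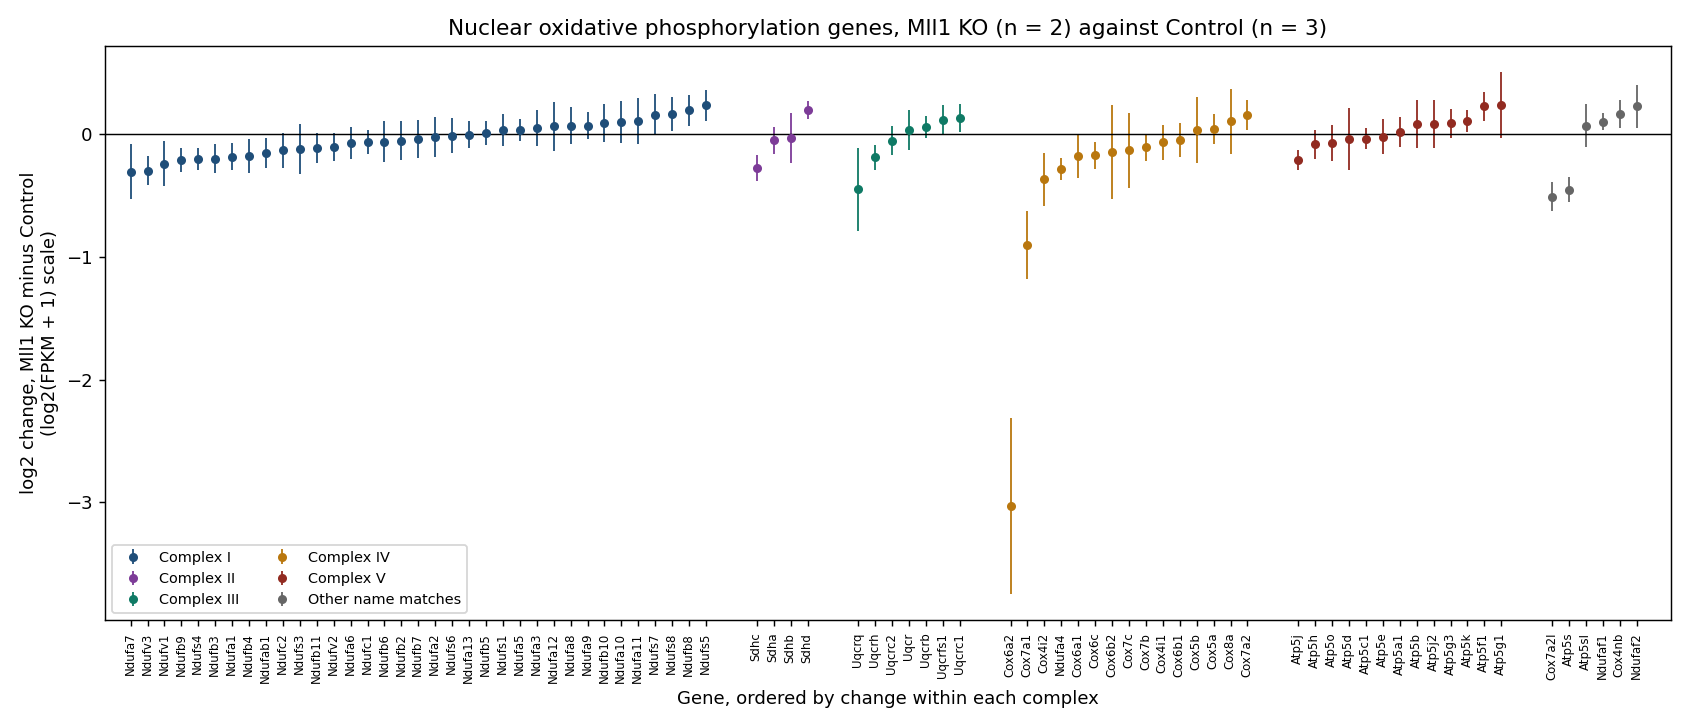
Each point is the log2 change (Mll1 KO minus Control, log2(FPKM + 1) scale) of 1 tested nuclear gene and each bar its limma standard error, ordered within complexes I to V and the other name matches. Most points lie within 0.3 of 0, while Cox6a2 stands at -3.03 and Cox7a1 at -0.90.

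**Figure D2:**
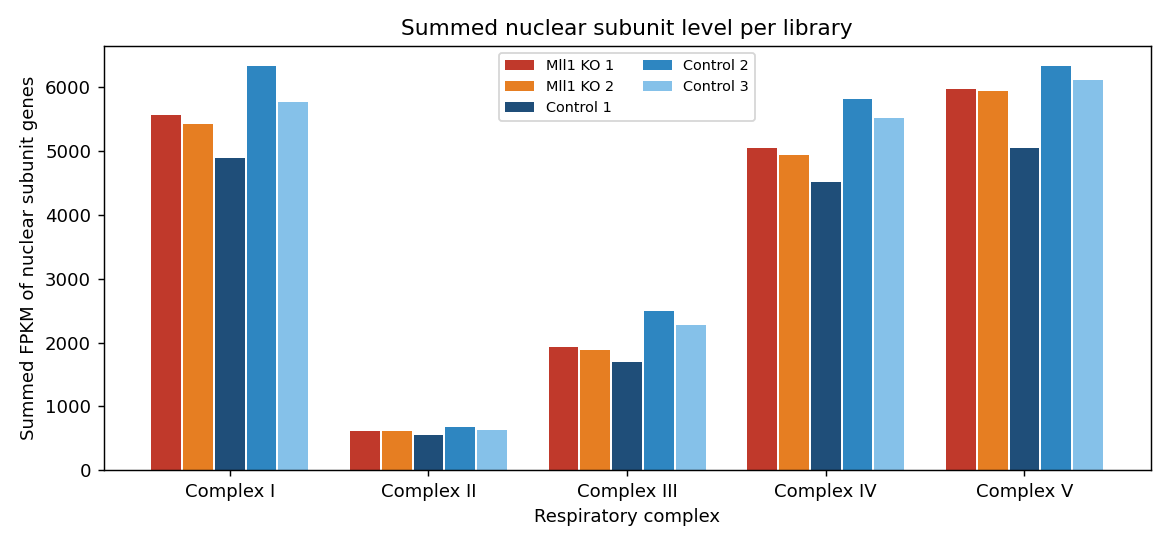
Bars show the summed FPKM of nuclear subunit genes of each complex in the 2 Mll1 KO and 3 Control libraries, 1 bar a library. In each complex the 2 knockout bars stand above Control replicate 1 and below Control replicates 2 and 3.

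Control replicate 1 stood apart from the other controls across these genes. It was below both other controls in 72 of the 82 tested members (87.8%), against 49.3% of all genes, and was the lowest of all 5 libraries in 58 members (70.7%), against 32.6% of all genes. On the log2 scale the median nuclear subunit stood at -0.29 in Control replicate 1 relative to the other controls, against -0.06 over all genes; among the core subunits of complex I the median was -0.42. Against Control replicates 2 and 3 alone, the knockout libraries had a median difference of -0.15 over nuclear subunits, with 62 of 75 below 0, against -0.05 over all genes. Against Control replicate 1 alone, the median was 0.17, with 60 of 75 above 0, against 0.01 over all genes. Control replicate 1 was also the control with the highest summed neutrophil markers, and whether the difference goes with cell content was not tested.

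Leaving out Control replicate 1, an alternative setting, gave 14 members lower in Mll1 KO and 0 higher of 82 by limma. That is 17.1% lower, against 18.0% of all genes lower and 11.9% higher in the same fit, so the share of members called lower was near the background. Among the 14 were Ndufa7, Ndufb3, Ndufc2 and Ndufv1 of complex I, Sdhb of complex II, Uqcrq of complex III, Cox6a1, Cox6a2 and Ndufa4 of complex IV, Atp5d and Atp5o of complex V, and the factors Atp5s and Cox7a2l. In that fit their log2 changes ran from -0.20 for Atp5o (adjusted p = 0.0441) to -0.77 for Uqcrq (adjusted p = 0.0132), leaving aside Cox6a2, which passed the filter on low values through the Control libraries alone.

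**Figure D3:**
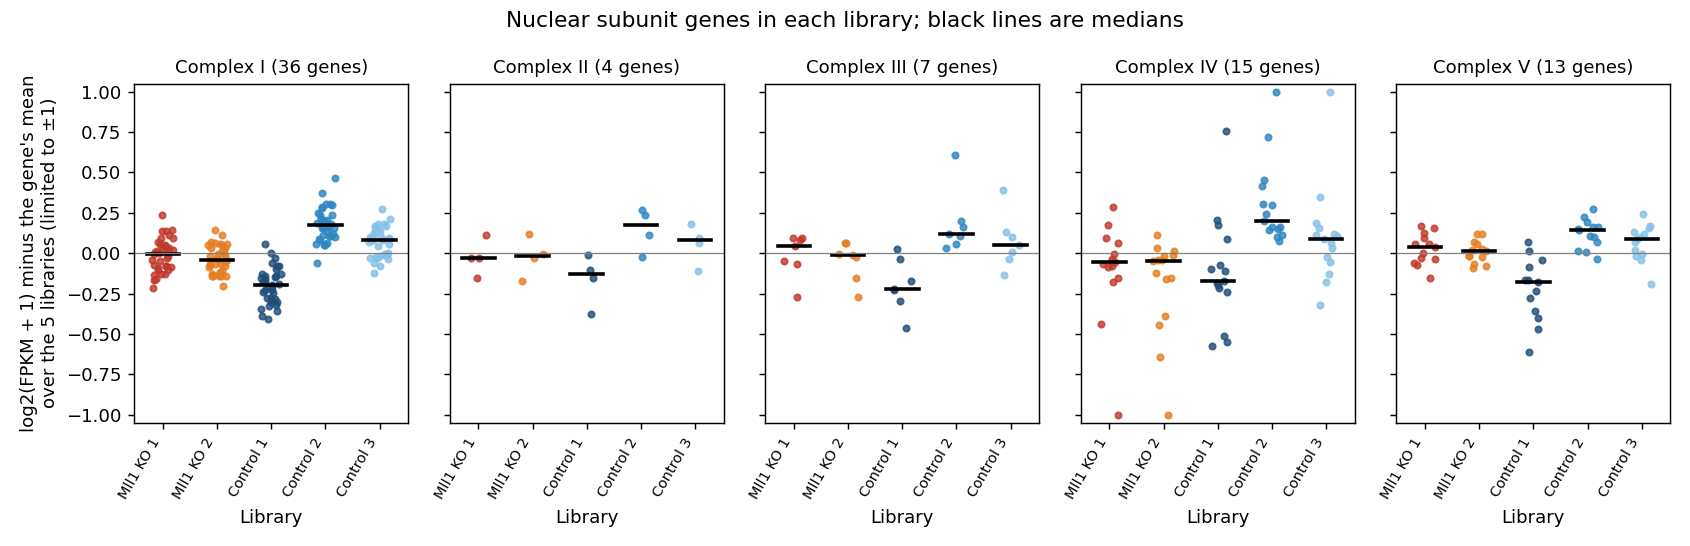
Each point is 1 nuclear subunit gene in 1 library, as log2(FPKM + 1) minus the gene's mean over the 5 libraries, with medians as black lines; values are limited to plus or minus 1, which moves 4 points of Cox6a2. The points of Control replicate 1 lie mostly below 0 in each complex, and those of Control replicate 2 mostly above 0.

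Mitochondrially encoded subunits could not be compared. The 10 members that GENCODE M21 places on the mitochondrial chromosome, which encode subunits of complexes I, III, IV and V, were listed at 0 in all 5 libraries, as were all 34 mitochondrial genes of the files, 22 transfer RNAs and 2 ribosomal RNAs among them. These are among the most abundant transcripts of most cells, and a value of 0 in files without counts can be a failed estimate, so it is not a measure of expression. By their identifiers, 3 of the rows carry another symbol in M21: the row named mt-Co3 is mt-Atp8 there, one of the mt-Nd6 rows is mt-Nd5, and the row named mt-Nd4 is mt-Nd4l. A further row named mt-Atp6 (ENSMUSG00000078295) had 1028 and 1081 FPKM in Mll1 KO, against 1550, 1137 and 1260 FPKM in Control. Both knockout values were below all controls, with a log2 change of -0.31 (SE 0.166, limma adjusted p = 0.282). Its identifier is not in M21, where mt-Atp6 has another one, so what that row measures is uncertain.

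Complex I takes electrons from NADH, and all 36 of its nuclear subunits were tested. Its most abundant members per length were the accessory subunits Ndufa3, with 475 and 412 FPKM in Mll1 KO, against 381, 493 and 409 FPKM in Control, and Ndufa2, with 308 and 266 FPKM in Mll1 KO, against 262, 351 and 266 FPKM in Control. In both genes the groups overlapped. The core subunits, which carry the flavin and the iron-sulphur clusters, had log2 changes from -0.24 (Ndufv1) to 0.17 (Ndufs8), and the knockout values of all 7 overlapped the control range. Changes among the 29 accessory subunits, which surround that core, ran from -0.31 to 0.24. Ndufa7 was at the low end, with 111 and 108 FPKM in Mll1 KO, against 103, 173 and 141 FPKM in Control (log2 change -0.31, SE 0.224, adjusted p = 0.413 by limma). Next to it Ndufv3 had 212 and 223 FPKM in Mll1 KO, against 247, 305 and 254 FPKM in Control (log2 change -0.30, adjusted p = 0.181 by limma). The groups overlapped for Ndufa7 and not for Ndufv3. At the high end Ndufs5 had 28.3 and 24.8 FPKM in Mll1 KO, against 19.5, 24.9 and 22.9 FPKM in Control, a log2 change of 0.24. Its level is uncertain, as another gene holds a near-identical stretch of its transcript. Ndufb8 had 294 and 304 FPKM in Mll1 KO, against 227, 288 and 273 FPKM in Control (log2 change 0.20, adjusted p = 0.358 by limma). Besides Ndufb8 above and Ndufv3 below, Ndufb9 and Ndufs4 had both knockout values outside the control range, below it, with log2 changes of -0.21 and -0.20.

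Complex II, which also works in the tricarboxylic acid cycle, has 4 subunits, all nuclear. Its catalytic subunits overlapped between the groups: Sdha, the flavoprotein, had 181 and 180 FPKM in Mll1 KO, against 166, 200 and 197 FPKM in Control. Sdhb, the iron-sulphur subunit, had 125 and 127 FPKM in Mll1 KO, against 97.9, 150 and 145 FPKM in Control. The membrane anchors stood apart in opposite directions. Sdhc had 100.2 and 98.7 FPKM in Mll1 KO, against 111, 134 and 117 FPKM in Control, with a log2 change of -0.27 (SE 0.105, adjusted p = 0.163 by limma). Sdhd had 206 and 206 FPKM in Mll1 KO, against 177, 186 and 176 FPKM in Control, with a log2 change of 0.20 (SE 0.0740, adjusted p = 0.156 by limma). Neither anchor passed the threshold, and the difference between them was not tested.

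Complex III had 7 nuclear subunits, all tested. The small subunits Uqcrq and Uqcrh were its most abundant members per length and also its 2 lowest changes. Uqcrq, a subunit close to cytochrome b, had 523 and 523 FPKM in Mll1 KO, against 458, 963 and 826 FPKM in Control (log2 change -0.45, SE 0.335, adjusted p = 0.422 by limma). The control values of Uqcrq spread widely around the knockout values. Uqcrh, the hinge protein of cytochrome c1, had 425 and 400 FPKM in Mll1 KO, against 434, 498 and 477 FPKM in Control (log2 change -0.18). Uqcrc1, a core protein, had 259 and 253 FPKM in Mll1 KO, against 207, 251 and 244 FPKM in Control (log2 change 0.13), both knockout values being above all controls. Uqcrfs1, the Rieske iron-sulphur protein, overlapped, with 167 and 165 FPKM in Mll1 KO, against 135, 172 and 154 FPKM in Control.

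Complex IV held the widest differences, in forms of its subunits that are known to be restricted to certain tissues. Cox6a2 (ENSMUSG00000030785), the heart and skeletal muscle form of subunit 6a, had 0.756 and 0.433 FPKM in Mll1 KO, against 4.19, 27.2 and 13.9 FPKM in Control. Means were 0.595 ± 0.229 FPKM in Mll1 KO (SD, n = 2) and 15.1 ± 11.5 FPKM in Control (SD, n = 3). Both knockout values were below all controls, and the controls spanned a wide range; the log2 change was -3.03 (SE 0.716), with an adjusted p of 0.0626 in limma, above the threshold. With both knockout values under 1 FPKM, Cox6a2 passed the filter through the Control libraries alone, so its test and any call of it under another setting are no support for a difference; with no filter its adjusted p was 0.137 in limma. Cox6a2 overlaps Itgad on the opposite strand, and whether strand was used in counting is not given in the sources used here; Itgad had 0.0341 and 0.0273 FPKM in Mll1 KO, against 0.0766, 0.159 and 0.0919 FPKM in Control. The widely expressed form Cox6a1 had 505 and 493 FPKM in Mll1 KO, against 454, 660 and 598 FPKM in Control. Cox6a2 thus made up 0.149% and 0.0878% of the pair's FPKM in Mll1 KO, against 0.914%, 3.96% and 2.28% in Control.

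Cox7a1 (ENSMUSG00000074218), the muscle form of subunit 7a, had 5.90 and 5.0 FPKM in Mll1 KO, against 14.8, 11.8 and 7.55 FPKM in Control. Both knockout values were below all controls (log2 change -0.90, SE 0.276, adjusted p = 0.103 by limma). Its widely expressed partner Cox7a2 had 425 and 380 FPKM in Mll1 KO, against 324, 395 and 362 FPKM in Control (log2 change 0.16), so Cox7a1 was 1.37% and 1.30% of that pair in Mll1 KO, against 4.38%, 2.90% and 2.04% in Control. The lung form Cox4i2 overlapped between the groups, with 4.0 and 2.97 FPKM in Mll1 KO, against 4.98, 5.92 and 3.58 FPKM in Control, and so did the testis form Cox6b2, with 7.03 and 7.84 FPKM in Mll1 KO, against 5.0, 13.7 and 8.14 FPKM in Control. The restricted forms Cox7b2, Cox8b and Cox8c did not pass the filter. Cox7b2 was listed at 0 in all libraries, and Cox8b and Cox8c at 0.415 FPKM or less.

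The 11 widely expressed subunits of complex IV had a median log2 change of -0.06. The most abundant were Cox4i1, with 779 and 777 FPKM in Mll1 KO, against 703, 916 and 834 FPKM in Control, and Cox6b1, with 709 and 690 FPKM in Mll1 KO, against 620, 788 and 766 FPKM in Control. Cox8a had 611 and 583 FPKM in Mll1 KO, against 389, 674 and 650 FPKM in Control, and Cox7b had 563 and 577 FPKM in Mll1 KO, against 557, 638 and 648 FPKM in Control. The groups overlapped in all 4 genes. Ndufa4 had 547 and 552 FPKM in Mll1 KO, against 657, 693 and 657 FPKM in Control, so that both knockout values were below all controls (log2 change -0.28, SE 0.0896, adjusted p = 0.111 by limma). Its paralogue Ndufa4l2, known as a target of hypoxia signalling, was near the filter limit and was not tested, with 1.55 and 0.998 FPKM in Mll1 KO, against 0.316, 0.837 and 0.536 FPKM in Control. Cox7c was low, at 1.63 and 0.584 FPKM in Mll1 KO and 1.43, 1.66 and 0.727 FPKM in Control, and the groups overlapped. A near-identical stretch of the Cox7c transcript lies in another gene, so its level is uncertain.

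**Figure D4:**
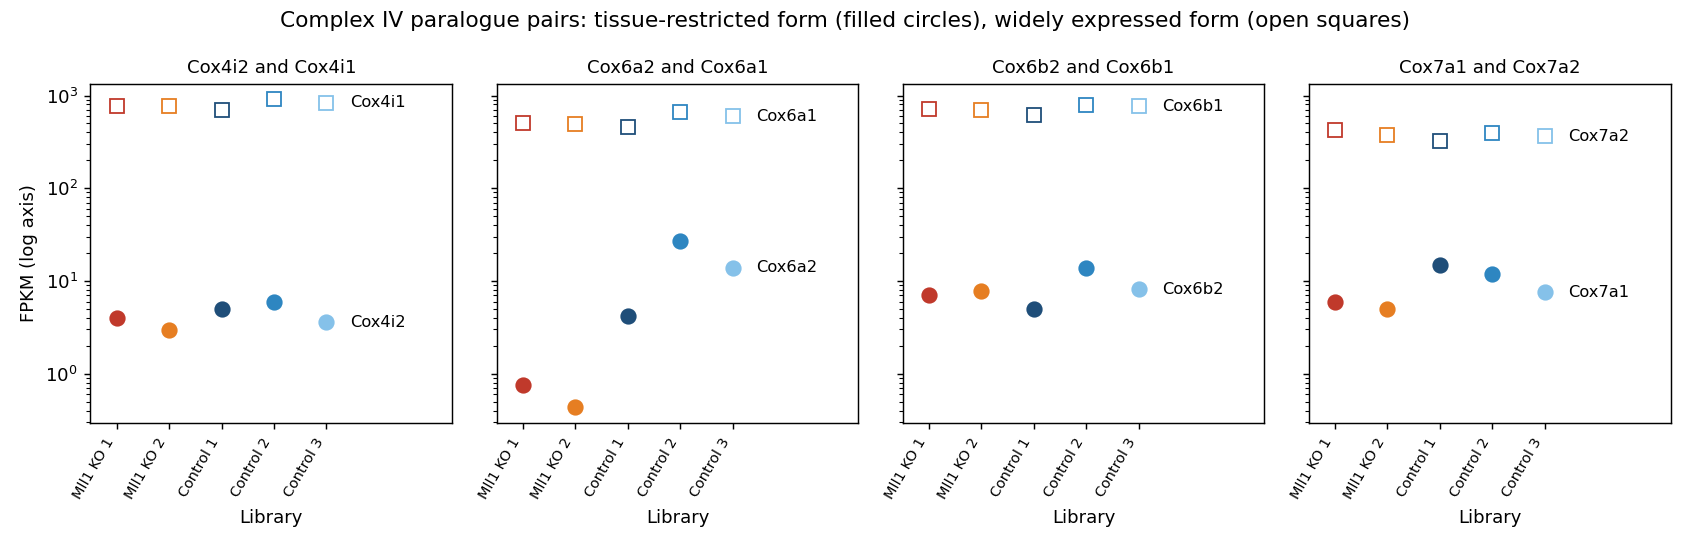
FPKM on a log axis of 4 pairs of complex IV paralogues in the 2 Mll1 KO and 3 Control libraries, with the tissue-restricted form as filled circles and the widely expressed form as open squares. Cox6a2 lies at 0.756 and 0.433 FPKM in Mll1 KO, against 4.19 to 27.2 FPKM in Control, while Cox6a1 stays between 454 and 660 FPKM.

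Complex V included the most abundant nuclear member. Atp5b, the catalytic beta subunit of the F1 head, had 1558 and 1580 FPKM in Mll1 KO, against 1182, 1674 and 1644 FPKM in Control, and Atp5a1, the alpha subunit, had 827 and 840 FPKM in Mll1 KO, against 732, 866 and 877 FPKM in Control. The groups overlapped in both. In the peripheral stalk, which holds the head in place, Atp5f1 had 224 and 219 FPKM in Mll1 KO, against 166, 202 and 201 FPKM in Control (log2 change 0.23, adjusted p = 0.256 by limma). Atp5j of the same stalk had 190 and 199 FPKM in Mll1 KO, against 223, 237 and 215 FPKM in Control (log2 change -0.21, adjusted p = 0.174 by limma). Knockout values were above all controls for Atp5f1 and below them for Atp5j. On the opposite strand Atp5j overlaps the GABP subunit gene Gabpa, and Atp5f1 overlaps Wdr77 and Gm42890. Another gene also holds a near-identical stretch of the Atp5f1 transcript, so its level is uncertain. Atp5h, also of the stalk, had 101 and 98.8 FPKM in Mll1 KO, against 92.0, 111 and 115 FPKM in Control. The membrane subunit Atp5k had 653 and 659 FPKM in Mll1 KO, against 592, 613 and 620 FPKM in Control, a log2 change of 0.11 with both knockout values above all controls.

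The rotating c ring is encoded by 3 genes for the same mature protein. Atp5g3 had 722 and 684 FPKM in Mll1 KO, against 604, 724 and 656 FPKM in Control. Atp5g1 had 14.4 and 13.8 FPKM in Mll1 KO, against 7.92, 15 and 13.6 FPKM in Control (log2 change 0.24, SE 0.269). As another gene holds a near-identical stretch of the Atp5g1 transcript, its level and its share below are uncertain. Atp5g2 stayed under 1 FPKM, with 0.555 and 0.50 FPKM in Mll1 KO, against 0.963, 0.394 and 0.461 FPKM in Control. The groups overlapped in each, and Atp5g1 made up 1.95% and 1.98% of the Atp5g1 and Atp5g3 pair in Mll1 KO, against 1.30%, 2.03% and 2.04% in Control.

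Assembly and supercomplex factors included the lowest adjusted p-values of the members. Atp5s (ENSMUSG00000054894), also called factor B, which binds the ATP synthase, had 7.72 and 7.51 FPKM in Mll1 KO, against 9.78, 11.8 and 10.8 FPKM in Control (log2 change -0.45, SE 0.102, adjusted p = 0.0583 by limma). Cox7a2l (ENSMUSG00000024248), known as a supercomplex factor of complexes III and IV, had 55.6 and 58.3 FPKM in Mll1 KO, against 70.8, 86.7 and 87.3 FPKM in Control (log2 change -0.51, SE 0.118, adjusted p = 0.0604 by limma). Whether Cox7a2l joins these complexes in cells of this strain was not measured. Both genes had knockout values below all controls and missed the threshold. Without Control replicate 1 the limma adjusted p-values were 0.0172 for Atp5s and 0.00683 for Cox7a2l, in a fit that called 18.0% of all genes lower. Of the 18 alternative settings, that one included, 3 called Atp5s and 6 called Cox7a2l. Another gene holds a near-identical stretch of the Cox7a2l transcript. The complex I assembly factor Ndufaf1 had 19.2 and 19.9 FPKM in Mll1 KO, against 18.1, 18.2 and 18.0 FPKM in Control, above all controls with a log2 change of 0.11. Ndufaf2 and Atp5sl overlapped between the groups, with log2 changes of 0.23 and 0.07.

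Some members' levels are uncertain because they share sequence with other genes: 22 of the 88 nuclear members had a stretch of at least 200 bases at 95% identity or more in a transcript of another gene. Atp5l, of the membrane part of complex V, had 9 such copies and lay at 0.629 FPKM or less, and the electron carrier cytochrome c, Cycs, had 4 copies and 0.0752 and 0.0753 FPKM in Mll1 KO, against 0.154, 0 and 0.0781 FPKM in Control. Copies and low levels did not go together in every gene. Cox7b and Cox6c, with 2 copies each, and Atp5h, with 4, were abundant, and Atp5g2 was low with 0 copies. Other low subunits did have copies. Means over the 5 libraries were 1.21 FPKM for Cox7c (1 copy), 12.9 for Atp5g1 (1 copy), 14.3 for Ndufab1 (2 copies) and 32.9 for Uqcrb (3 copies). Ndufs5, Ndufb4 and Ndufs3, with 1 copy each, averaged 24.1, 26.7 and 41.8 FPKM. Whether copies lower these values was not tested. Counted separately, 32 nuclear members overlap a gene on the opposite strand.

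Genes that feed, carry or maintain the chain were followed as lists. Among electron and nucleotide carriers, 10 of 11 were tested, 0 higher and 1 lower, with a median log2 change of 0.03, against -0.03 over all genes. A share of 1 in 10 is near the 9.79% called over all genes. The one that fell was Etfdh, which passes electrons from fatty acid oxidation to coenzyme Q. It had 30.5 and 32.1 FPKM in Mll1 KO, against 40.6, 41.8 and 42.1 FPKM in Control (log2 change -0.40, SE 0.0683, adjusted p = 0.0336 by limma). Etfa, its electron donor, had 74.0 and 73.4 FPKM in Mll1 KO, against 86.4, 88.3 and 84.5 FPKM in Control, and missed the threshold (adjusted p = 0.0945 by limma). Etfdh lost its call without Mll1 KO replicate 1 (adjusted p = 0.313), Mll1 KO replicate 2 (0.272), Control replicate 2 (0.103) or Control replicate 3 (0.0951), and kept it without Control replicate 1 (0.0140), all by limma. It overlaps 4930579G24Rik on the opposite strand, which had 14.9 and 14.0 FPKM in Mll1 KO, against 18.0, 14.9 and 15.9 FPKM in Control.

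Of the genes that maintain and transcribe mitochondrial DNA, 12 of the 13 in the files were tested, with 1 higher, 0 lower and a median log2 change of -0.16, against 3.82% of all genes higher, 5.97% lower and a median of -0.03. Polg, the catalytic subunit of the mitochondrial DNA polymerase, rose, with 24.1 and 23.3 FPKM in Mll1 KO, against 12, 16.1 and 13.5 FPKM in Control (log2 change 0.74, SE 0.133, adjusted p = 0.0370 by limma). Fanci, on the opposite strand and overlapping Polg, had 5.70 and 5.46 FPKM in Mll1 KO, against 7.54, 9.58 and 7.91 FPKM in Control. The Polg call was lost without Mll1 KO replicate 1 (adjusted p = 0.272), Mll1 KO replicate 2 (0.264), Control replicate 2 (0.0608) or Control replicate 3 (0.104), and was kept without Control replicate 1 (0.0196), all by limma. Tfam, which packages mitochondrial DNA and starts its transcription, had 42.4 and 43.3 FPKM in Mll1 KO, against 52.8, 54.6 and 51.6 FPKM in Control (log2 change -0.30, adjusted p = 0.0566 by limma). Tfb1m, a mitochondrial ribosomal RNA methyltransferase, had 6.85 and 7.99 FPKM in Mll1 KO, against 10.1, 14.7 and 13.7 FPKM in Control (log2 change -0.70, adjusted p = 0.0696 by limma). Both genes had knockout values below all controls.

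Nuclear regulators of respiratory genes were called in neither direction (0 of 9 tested by limma), with a median log2 change of -0.09. Over all genes 9.79% were called and the median was -0.03, so 0 calls in a list this short do not set it apart. Nrf1 had 21.5 and 21.1 FPKM in Mll1 KO, against 18.7, 22.1 and 22.8 FPKM in Control. Gabpa, the DNA-binding subunit of GABP, had 39.5 and 42.8 FPKM in Mll1 KO, against 36.9, 37.5 and 43.6 FPKM in Control, and Yy1 had 77.0 and 80.4 FPKM in Mll1 KO, against 81.8, 81.8 and 88.3 FPKM in Control. The groups overlapped for Nrf1 and Gabpa, and the knockout values of Yy1 were below all controls. Gabpb1, which encodes a partner subunit of Gabpa, had 34.3 and 36.9 FPKM in Mll1 KO, against 38.1, 50.5 and 49.4 FPKM in Control. Its change was the largest of the 9, at -0.35 (adjusted p = 0.183 by limma). Of the 9 changes, 2 were above 0 and 7 below. The coactivator Ppargc1a, a main inducer of respiratory genes in muscle and brown fat, was at 0.0184 FPKM or less in each library and was not tested.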

How the data were processed

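Gene expression was measured by RNA sequencing of stranded mRNA libraries, per the labels' protocols, in 2 Mll1 KO and 3 Control libraries. The deposited values are FPKM, 1 per gene and library. CASAVA 1.8.2, SAMtools, Cuffdiff, GSNAP and build mm9 are named, without order, in the submitters' processing notes. Which annotation was used, whether strand was used and what was done with multi-mapped reads is not given in the sources used here. In 16 genes, no member among them, a library held 999999999, which was read as a failed estimate, and the genes were left out. The 11780 genes that reached 1 FPKM in 2 or more libraries were tested on the log2(FPKM + 1) scale by limma 3.58.1 (R 4.3.3, trend in the variance prior), with two-sided Benjamini-Hochberg adjusted p-values. Log2 changes are on that scale, which understates changes of low genes. The procedure was tested on simulated data. Names and overlaps came from GENCODE M21 (build GRCm38), near-identical copies from blastn 2.17.0, with Python 3.11.15 and pandas 2.3.3 for the tables. No coordinates were carried between builds.

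The members, their classes and the other gene lists were chosen with earlier results of these data known. Named members are the mitochondrial rows, in each complex the 2 most abundant members and the 2 highest and 2 lowest changes, members outside the control range with an unadjusted p under 0.05 and a size of at least 0.3, paralogue pairs and members listed at 0; other members named were added after their values were seen. In the counts and medians 1 member is included that is not reported here by name, and it is left out of the plot of changes by gene. Mll1 KO libraries differed from each other by a median of 0.0727 (absolute log2 difference over genes tested), and pairs of controls by 0.114 to 0.233, so no library was treated as a copy of another; without counts, sampling noise could not be set beside these values. The alternatives tried were other pseudocounts, filters, scalings, a length and GC correction, other variance models, a replicate block, another threshold and leaving out each library.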

Additional observations from a re-analysis of the deposited data

How the results depend on the processing

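No member was called higher under any of the 18 alternatives; of the genes named outside the members, Etfdh and Polg were followed through them and kept their sign. Cox6a2, which stands among the calls below, passed the filter through the Control libraries alone. The members called lower (0 as reported, limma) numbered 1 with a pseudocount of 0.1 (Cox6a2), 1 with median-ratio scaling (Cox7a2l), 2 with quantile normalization (Ndufa4 and Cox7a2l), 2 with scaling to the nuclear sum (Atp5s and Cox7a2l), 2 with the length and GC correction (Cox6a2 and Cox7a2l) and 3 at an adjusted p under 0.1 (Cox6a2, Atp5s and Cox7a2l); leaving out each library in turn gave 0 to 14. Over all genes, 450 were called higher and 703 lower as reported. These counts were 238 and 259 with no filter on low values, 1021 and 1414 at an adjusted p under 0.1, and ranged from 0 to 1398 higher and from 0 to 2118 lower when each library was left out; the counts of 0 came without Mll1 KO replicate 2, where 1669 genes had an unadjusted p under 0.05 and the lone knockout library was assumed to vary like the controls. The replicate numbers of the 2 groups share only a number: same-numbered libraries had deviations correlated at 0.037 and 0.012, and with the number as a block limma called 12 genes higher and 43 lower (0.467%) and none of the 82 members in either direction, with 5 members at an unadjusted p under 0.05. The median log2 change of nuclear subunits ran from -0.15 to 0.06 when a library was left out, that of complex I from -0.15 to 0.05, of complex II from -0.18 (without Control replicate 1) to 0.041, of complex III from -0.10 to 0.09, of complex IV from -0.21 to -0.0040 and of complex V from -0.06 to 0.09. The Polg call was also lost with no filter (adjusted p = 0.0779 in limma), and both Polg and Etfdh lost theirs under the block (0.144 and 0.191). The cause of these shifts was not tested. Absolute depth is unknown. With 2 knockout libraries, a change under 0.353, the median reach of a member's 95% interval to either side, was not detectable for a typical member. Some members had narrower intervals. Those of Sdhd (0.20), Sdhc (-0.27) and Ndufa4 (-0.28) left out 0, and none of these genes was called. Larger changes could also miss the adjusted threshold, as those of Cox7a2l (-0.51) and Atp5s (-0.45) did.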

Other observations

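The tricarboxylic acid cycle, which supplies NADH and succinate to the chain, had all 20 listed genes tested and none called in either direction by limma, with 10 changes above 0, 10 below and a median log2 change of 0.01, against -0.03 over all genes. Mdh1, the cytosolic malate dehydrogenase, is on the list but works outside the mitochondrial cycle. It came nearest to a call, with 154 and 153 FPKM in Mll1 KO, against 186, 208 and 200 FPKM in Control (log2 change -0.36, adjusted p = 0.0583 by limma). Mdh1 overlaps Wdpcp on the opposite strand. The mitochondrial form Mdh2 had 507 and 518 FPKM in Mll1 KO, against 424, 578 and 581 FPKM in Control (log2 change -0.03). The largest fall on the list was that of Idh2, at -0.40 (adjusted p = 0.150 by limma). Citrate synthase, Cs, had 192 and 204 FPKM in Mll1 KO, against 146, 182 and 191 FPKM in Control, a log2 change of 0.20. Coenzyme Q synthesis had 11 genes tested, none called, and a median log2 change of 0.01. With 9.79% of all genes called, 0 calls in lists this short do not set either list apart.

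Assembly factors outside the Nduf, Cox and Atp5 subunit names were likewise not called by limma in either direction: 0 of 7 for complex I (median log2 change -0.12), 0 of 4 for complex III (-0.21), 0 of 11 for complex IV (0.06) and 0 of 4 for ATP synthase (-0.16). Over all genes 9.79% were called and the median was -0.03, so these counts do not set the assembly factors apart. The knockout sums of the assembly factors lay within the range of the controls for complexes I, III and IV and for ATP synthase. The ATP synthase inhibitor Atpif1 was the most abundant of them, with 740 and 746 FPKM in Mll1 KO, against 687, 899 and 959 FPKM in Control.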
